A study of Mus musculus with 8 samples.

Results

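Caveolins are the membrane-inserted proteins of caveolae and cavins their coat, and EHD proteins are ATPases that bind membrane necks. The 10 genes described here are 3 caveolins (Cav1, Cav2, Cav3), 4 cavins (Cavin1 to Cavin4, known earlier as Ptrf, Sdpr, Prkcdbp and Murc) and 3 EHD genes (Ehd1, Ehd2, Ehd4). They were picked by symbol among the 22880 Ensembl gene IDs counted in each mouse, and all 10 passed a filter on low counts that left 14001 genes for testing. RNA had been sequenced from the entire soleus, which lies in the calf and is rich in slow fibres, of 4 control mice (Dnm2 +/+) and 4 heterozygous Dnm2 +/K562E mice. All were males aged 2 months, labelled as C57BL/6 and given as the J substrain in the study's methods. The Dnm2 K562E allele is a point mutation knocked into the endogenous gene of dynamin 2, the GTPase that pinches off membrane vesicles. Every cell type of these mice carries it, beside 1 wild-type allele, and a LoxP site remains in an intron of the mutant allele. The comparison asks how the transcriptome of the mutant muscle differs from that of control muscle.

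Caveolae are small flask-shaped pits of the plasma membrane. Caveolins insert into the inner leaflet and cavins coat the bulb from the cytosol. EHD proteins oligomerize around membrane necks, where EHD2 holds caveolae at the surface, whereas EHD1 and EHD4 act mainly in endosomal recycling. Cav1, Cav2 and Cavin2 are abundant in endothelial cells, adipocytes and smooth muscle, while Cav3 and Cavin4 are the forms of muscle fibres, where caveolin 3 also takes part in building the T-tubules. Loss of CAV3 or CAVIN1 causes muscle disease in humans. Dynamin 2 has been placed at the neck of caveolae as well.

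The genes lie on 7 chromosomes of GRCm38. Cav2 (chromosome 6, 17281185 to 17289115) and Cav1 (chromosome 6, 17306335 to 17341452) are neighbours on the plus strand, and Cav3 is on the same chromosome at 112459505 to 112472872. The upstream windows of these caveolins, whose RNA levels moved in opposite directions, and of Ehd4, which changed most, are shown from RefSeq (GRCm38.p6). Each is the 250 bases before the annotated start, 5′ to 3′ on the strand of the gene. Capitals mark matches to the E-box CANNTG or the GC box GGGCGG, both searched on either strand.
Cav1 (chr6:17306085-17306334, plus strand, before the first of 2 RefSeq starts): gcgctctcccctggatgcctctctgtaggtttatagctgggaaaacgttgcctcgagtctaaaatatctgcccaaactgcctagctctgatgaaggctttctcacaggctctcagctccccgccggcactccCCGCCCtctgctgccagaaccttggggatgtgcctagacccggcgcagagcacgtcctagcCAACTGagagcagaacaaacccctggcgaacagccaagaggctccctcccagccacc
Cav2 (chr6:17280935-17281184, plus strand): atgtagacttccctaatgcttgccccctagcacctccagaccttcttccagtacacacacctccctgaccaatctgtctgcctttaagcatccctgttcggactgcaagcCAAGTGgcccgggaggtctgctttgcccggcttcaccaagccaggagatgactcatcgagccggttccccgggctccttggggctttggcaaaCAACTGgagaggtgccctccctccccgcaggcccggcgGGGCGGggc
Cav3 (chr6:112459255-112459504, plus strand): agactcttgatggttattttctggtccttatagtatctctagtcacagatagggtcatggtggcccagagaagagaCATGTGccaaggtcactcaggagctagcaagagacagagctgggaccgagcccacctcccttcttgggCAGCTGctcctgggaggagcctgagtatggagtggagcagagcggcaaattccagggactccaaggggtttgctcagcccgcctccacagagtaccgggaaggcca
Ehd4 (chr2:120154576-120154825, minus strand): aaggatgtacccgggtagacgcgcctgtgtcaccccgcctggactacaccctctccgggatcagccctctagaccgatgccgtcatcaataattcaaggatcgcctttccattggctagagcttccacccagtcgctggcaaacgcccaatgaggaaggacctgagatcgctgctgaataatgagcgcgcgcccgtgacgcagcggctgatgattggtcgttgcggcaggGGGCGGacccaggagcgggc

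The Cav3 window holds 2 E-boxes, 174 and 106 bases before the start, and no GC box. The windows shown for Cav1 and Cav2 hold both kinds of motif, and that of Ehd4 holds 1 GC box and no E-box. The window before the second Cav1 start, not shown, holds 1 E-box and no GC box. E-boxes were found in 66.2% and GC boxes in 32.7% of all 32851 RefSeq windows of this length, so these matches are common. None of the windows of the 8 members found in the table holds a MEF2 site or a CArG box (2.92% and 1.47% of all windows). The Ehd4 window has 21 CpG dinucleotides and that of Cav3 has 4. Ehd1 and Cavin3 had no entry in the table used here.

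Libraries held between 33407430 and 48832814 counts, and each member had between 922 and 19852 counts per mouse. Levels are given as normalized CPM, the count of a gene divided by the library size after TMM scaling and brought to a common total, where TMM sets libraries level by genes that differ little between them. Genotypes were compared with edgeR's quasi-likelihood test over all 14001 genes, with Benjamini-Hochberg adjusted p. A gene was called when its adjusted p was under 0.05 and its log2 fold change at least 0.58 in either direction. Of the markers of the labelled tissue, the slow myosin gene Myh7 had mean levels of 6014 CPM in controls and 4193 CPM in Dnm2 +/K562E mice. Dnm2 itself was at 66.3 ± 4.74 CPM in controls and 73.4 ± 2.43 in Dnm2 +/K562E mice (SD, n = 4 each). Every mutant mouse lay above every control, as for 20.6% of all tested genes. The log2 fold change of 0.15 did not pass the test (adjusted p = 0.0909). With libraries scaled by size alone it was 0.36 (adjusted p = 0.00271), where 40.1% of all tested genes were higher. Counts add both alleles of Dnm2, so they do not test the genotype. In RNA from whole muscle, fewer cells of a type and less RNA per cell cannot be told apart.

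In Dnm2 +/K562E soleus, mean Ehd4 was 2.82-fold higher and mean Cav3 36.3% higher than in controls. Mean Ehd2 fell by 25.7%, Cav2 fell by 27.9%, Cav1 fell by 29.0% and Cavin2 fell by 32.4%. Cavin1 was lower by a smaller amount, and Cavin3, Cavin4 and Ehd1 did not pass the test. Ehd4 alone was called with both thresholds, 1 of 10 members, where 12.9% of all tested genes were called higher. No member was called lower (7.85% of all genes), although 5 were lower at an unadjusted p under 0.05, and edgeR's exact test and DESeq2 likewise called none. With the adjusted p alone, 2 members were higher and 5 lower, against 22.2% and 21.7% of all tested genes. The genotypes did not overlap for 2 higher and 4 lower members (20.6% and 20.5% of all genes). The median log2 fold change was -0.23 over the 10 members and 0.01 over all tested genes. The plot of CPM by mouse shows these values.

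**Figure D1:**
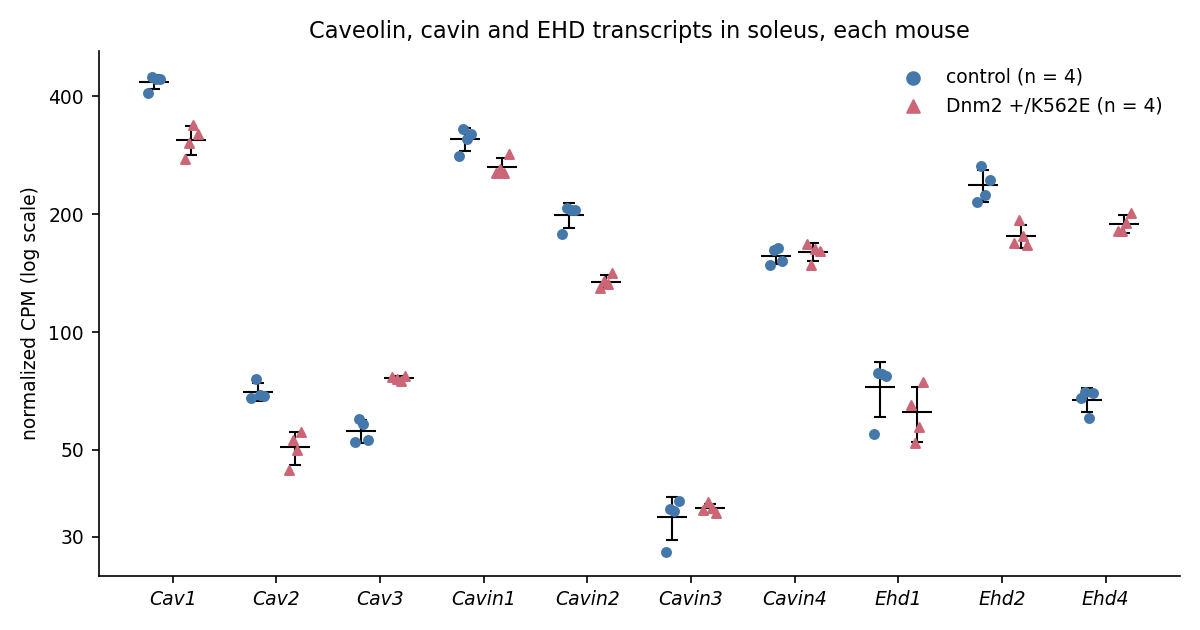
Normalized CPM of the 10 genes in soleus (log axis), with 1 point per mouse (circles, 4 control mice; triangles, 4 Dnm2 +/K562E mice), the mean as a horizontal line and the SD as bars. The genotypes separate upwards for Ehd4 and Cav3, separate downwards for Cav1, Cav2, Cavin2 and Ehd2, and overlap for the other 4 genes.

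Among the caveolins, the muscle form moved against the other 2. Cav3, the caveolin of muscle fibres, was at 52.5, 60.0, 58.4 and 53.1 CPM in controls 1 to 4 and at 76.9, 75.8, 75.2 and 77.4 in Dnm2 +/K562E mice 1 to 4. Every mutant mouse lay above every control, and the mutant values were close together. On the log2 scale it rose by 0.45 (standard error 0.06, adjusted p = 1.93e-04), and 20.1% of all tested genes had a larger increase.

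Cav1, the main structural caveolin outside muscle fibres, was at 409, 448, 445 and 444 CPM in controls and at 277, 304, 338 and 321 in Dnm2 +/K562E mice. All mutant mice lay below all controls. The difference was -0.49 on the log2 scale (standard error 0.07, adjusted p = 2.35e-04). Cav2, which forms hetero-oligomers with caveolin 1 and needs it to reach the surface, was at 67.9, 76.1, 69.0 and 68.7 CPM in controls and at 44.4, 53.2, 49.8 and 55.6 in mutants. Again no mutant value reached a control value. This made a log2 difference of -0.47 (standard error 0.08, adjusted p = 6.20e-04).

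Because Cav3 and Cav1 are counted in the same library, their ratio does not depend on how libraries are scaled. The log2 ratio of Cav3 to Cav1 counts was -2.97 ± 0.0715 in controls and -2.02 ± 0.132 in Dnm2 +/K562E mice (SD, n = 4 each), a difference of 0.95. Controls ran from -3.07 to -2.90 and mutants from -2.17 to -1.85. Per kilobase of exon, Cav3 made up 24.6% ± 0.846 of the reads of the 3 caveolins in controls and 38.6% ± 2.11 in mutants (SD, n = 4 each), while Cav1 went from 64.6% ± 1.01 to 52.5% ± 2.02. The ratio of Cav2 to Cav1, chosen after their values were seen, had log2 means of -2.63 ± 0.0672 in controls and -2.61 ± 0.114 in mutants (SD, n = 4 each), and the groups overlapped.

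**Figure D2:**
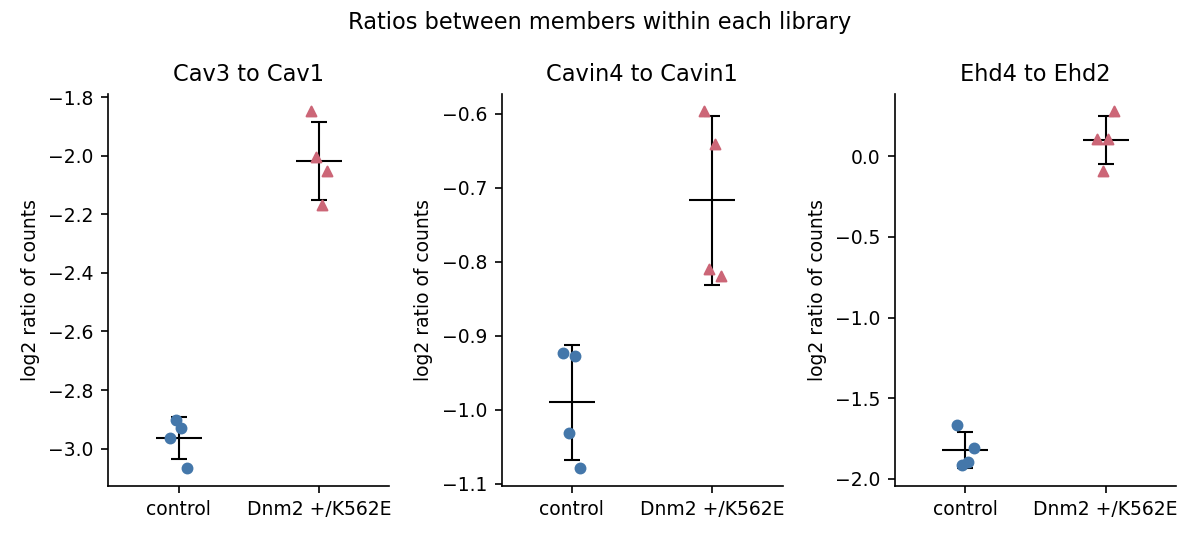
Log2 ratios of raw counts within each library for Cav3 to Cav1, Cavin4 to Cavin1 and Ehd4 to Ehd2, with 1 point per mouse (circles, control; triangles, Dnm2 +/K562E), the mean as a horizontal line and the SD as bars. In each panel all 4 mutant mice lie above all 4 controls, with mean differences of 0.95, 0.27 and 1.92.

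The cavins did not move as a block. Cavin2, the cavin that shapes caveolae in endothelium, was at 178, 208, 205 and 206 CPM in controls and at 129.5, 135, 132 and 142 in Dnm2 +/K562E mice. Control 1 was the lowest control and still lay above every mutant. Its log2 difference of -0.56 (standard error 0.06, adjusted p = 5.68e-05) fell just short of the fold threshold, and without control 1 it was -0.62 and passed it. Without Dnm2 +/K562E mouse 4 it was -0.59, which also passed.

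Cavin1, the cavin that caveolae of every cell type require, was at 282, 331, 312 and 321 CPM in controls and at 255, 261, 254 and 285 in Dnm2 +/K562E mice. Mutant mouse 4 lay above control 1, so the groups overlapped. Its log2 difference was -0.24 (standard error 0.07, adjusted p = 0.0139). With libraries scaled by size alone it was -0.030 (adjusted p = 0.720).

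Cavin4, the muscle-restricted cavin of the sarcolemma and T-tubules, was at 149, 162, 164 and 152 CPM in controls and at 168, 149, 163 and 162 in Dnm2 +/K562E mice. The groups overlapped, and the log2 difference was 0.03 (standard error 0.06, adjusted p = 0.673). The log2 ratio of Cavin4 to Cavin1 was -0.99 ± 0.0776 in controls and -0.72 ± 0.114 in mutants (SD, n = 4 each), without overlap. Cavin3, which binds protein kinase C delta, ran from 27.5 to 37.1 CPM in controls and from 34.5 to 36.7 in mutants (log2 fold change 0.07, standard error 0.09, adjusted p = 0.541). Its exons overlap the unprocessed transcript Gm45667 on the other strand over 22.5% of their length, and the sources differ on whether the libraries kept the strand, so its count is less certain. Without control 1 its log2 fold change was -0.021. Scaled by library size alone, Cavin3 (0.28, adjusted p = 0.0321) and Cavin4 (0.25, adjusted p = 0.00526) passed the test.

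Of the 3 EHD genes, Ehd4 was higher and Ehd2 lower, and Ehd1 did not pass the test. Ehd4, an endosomal EHD protein that can also bind caveolae, was at 67.7, 70.5, 60.2 and 70.0 CPM in controls and at 182, 181, 190.5 and 202 in Dnm2 +/K562E mice. The lowest mutant was more than 100 CPM above the highest control. Its log2 difference was 1.49 (standard error 0.07, adjusted p = 2.34e-07), its p-value ranked 16 among all tested genes, and 3.03% of the tested genes had a larger increase.

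Ehd2, the EHD protein at the caveolar neck, was at 215, 265, 224 and 245 CPM in controls and at 169, 193, 177 and 167 in mutants. All mutants lay below all controls. The log2 difference was -0.43 (standard error 0.08, adjusted p = 0.00124), and by library size alone it was -0.22 (adjusted p = 0.0556). Ehd1, the recycling EHD protein, was at 55.1, 78.7, 78.2 and 77.0 CPM in controls and at 65.3, 52.1, 57.4 and 74.8 in mutants. Control 1 lay far below the other controls and inside the range of the mutants. The log2 difference was -0.21 (standard error 0.13, adjusted p = 0.222), but without control 1 it was -0.33 (adjusted p = 0.0243). The log2 ratio of Ehd4 to Ehd2, chosen after their values were seen, was -1.82 ± 0.112 in controls and 0.10 ± 0.151 in mutants (SD, n = 4 each).

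Scaling moved all members in parallel, as the plot of log2 fold changes under 2 scalings shows. With library size alone the median over all genes was 0.22, and the log2 fold changes of the members ran from -0.35 for Cavin2 to 1.70 for Ehd4. Of all tested genes 20.5% were then called higher and 4.03% lower. The order of the 10 members was the same in both scalings. Cav1 (-0.29), Cav2 (-0.26) and Cavin2 stayed lower with an adjusted p under 0.05, and Cav3 (0.66) then passed the fold threshold too.

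**Figure D3:**
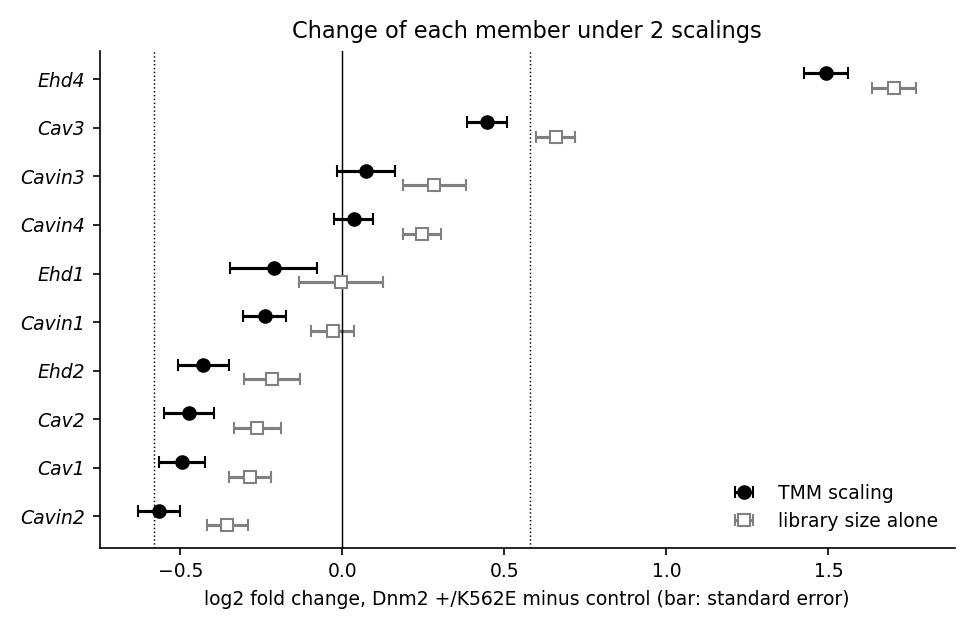
Log2 fold change of each of the 10 genes (Dnm2 +/K562E minus control, bars are standard errors) with TMM scaling (filled circles) and with library size alone (open squares), the dotted lines marking the threshold of 0.58. Library size alone shifts every gene to the right by a similar amount, and Ehd4 lies beyond the threshold under both.

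The levels of different genes were compared per kilobase of exon, as normalized CPM divided by exon length. In controls Cav1 was highest at 126.8 ± 5.30, followed by Cavin1 (86.8 ± 5.92) and Cavin4 (76.3 ± 3.63), whose ranges overlapped, and then by Cavin2 (65.2 ± 4.67, SD, n = 4 each). Cav3 (48.4 ± 3.25) and Ehd2 (46.3 ± 4.40) could not be separated. Cav2, Cavin3, Ehd1 and Ehd4 followed between 21.1 and 16.7, and each overlapped the next. In Dnm2 +/K562E mice Cav1 (90.0 ± 7.55) overlapped Cavin4 (78.1 ± 4.08), which overlapped Cavin1 (73.5 ± 4.04). Cav3 came next at 66.0 ± 0.866, clear of both neighbours, ahead of Ehd4 (47.1 ± 2.44) and Cavin2 (44.1 ± 1.69), which overlapped. Ehd4 had the lowest mean in controls, where it overlapped Ehd1, and the fifth highest in mutants. Cav2 had the lowest mean in mutants (15.2 ± 1.46), where it overlapped Ehd1 (16.8 ± 2.67).

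Cav1, Cav2, Cavin2 and Ehd2 are genes of endothelial, mural and fat cells as much as of caveolae, so lists of markers were set beside them. All 12 endothelial markers had lower means in mutants, Cldn5 only in this scaling, with a median of -0.40. The test was passed by 9 of them, where 21.7% of all tested genes were lower. The summed level of the 12 markers ran from 1572 to 1682 CPM in controls and from 1075 to 1236 in mutants. Examples were the cadherin of endothelial junctions Cdh5 (log2 fold change -0.40, adjusted p = 7.68e-04) and the VEGF receptors Kdr (-0.64, adjusted p = 1.23e-04) and Flt1 (-0.73, adjusted p = 9.01e-05). With library size alone 6 of the 12 passed, all lower, where 10.7% of all tested genes were lower. The list median was then -0.19. Of 9 mural markers (pericytes and smooth muscle), 8 were lower and Cspg4 was higher, with sums from 1965 to 2160 CPM in controls and from 1366 to 1589 in mutants. With library size alone 5 of the 9 were lower, and Cspg4 was again higher.

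Measured against the summed endothelial markers of the same mouse, Cav1 hardly differed between genotypes. Its log2 ratio to that sum was -1.89 ± 0.0703 in controls and -1.94 ± 0.0532 in mutants (SD, n = 4 each), and the groups overlapped. They overlapped for Cav2, Cavin2 and Ehd2 too, with differences of -0.03, -0.11 and 0.02. For Cav3 the difference was 0.90 and for Ehd4 it was 1.95, without overlap. Cavin3 (0.53), Cavin4 (0.48) and Cavin1 (0.21) were also higher against this sum without overlap, and Ehd1 (0.24) overlapped. In CPM, however, Cavin3 and Cavin4 had log2 fold changes of only 0.07 and 0.03, and Cavin1 was lower. The endothelial sum itself went from a mean of 1620 CPM in controls to 1186 in mutants. A gene of unchanged CPM is therefore higher against it, and any gene lowered by as much shows no difference. How many of all tested genes overlap on this ratio was not counted, so it does not tell endothelial genes from others. The ratio was added after the values were seen. It was not taken to the mural or muscle fibre sums, which were lower in mutants as well. Their means went from 2061 to 1519 CPM (mural) and from 71441 to 48182 CPM (muscle fibre). The part of endothelial RNA in the lower levels was not tested.

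Adipocyte markers varied between mice. Their sums ran from 537 to 973 CPM in controls and from 426 to 561.7 in mutants. In controls Plin4 alone made up 55.1% of the sum. The test was passed by 2 of 8, the lipid droplet coat gene Plin4 (-1.05) and the lipase gene Lipe (-0.63), both lower. For this and the next lists, 22.2% of all tested genes were higher and 21.7% lower. Adipoq, the defining gene of fat cells, differed by -0.49 without passing (adjusted p = 0.371). Fibroblast markers rose, 7 of 8 tested with a median of 1.00, from sums of 2044 to 3030 CPM in controls to 4192 to 5388 in mutants, while Ly6a was lower (-0.19), but at 0.019 with library size alone (adjusted p = 0.844). Tcf21 of that list was below the filter on low counts. Macrophage markers rose in 7 of 8 (median 1.17), from 132 to 261 CPM in controls to 269 to 455 in mutants. None of the 7 Schwann cell markers passed the test.

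**Figure D4:**
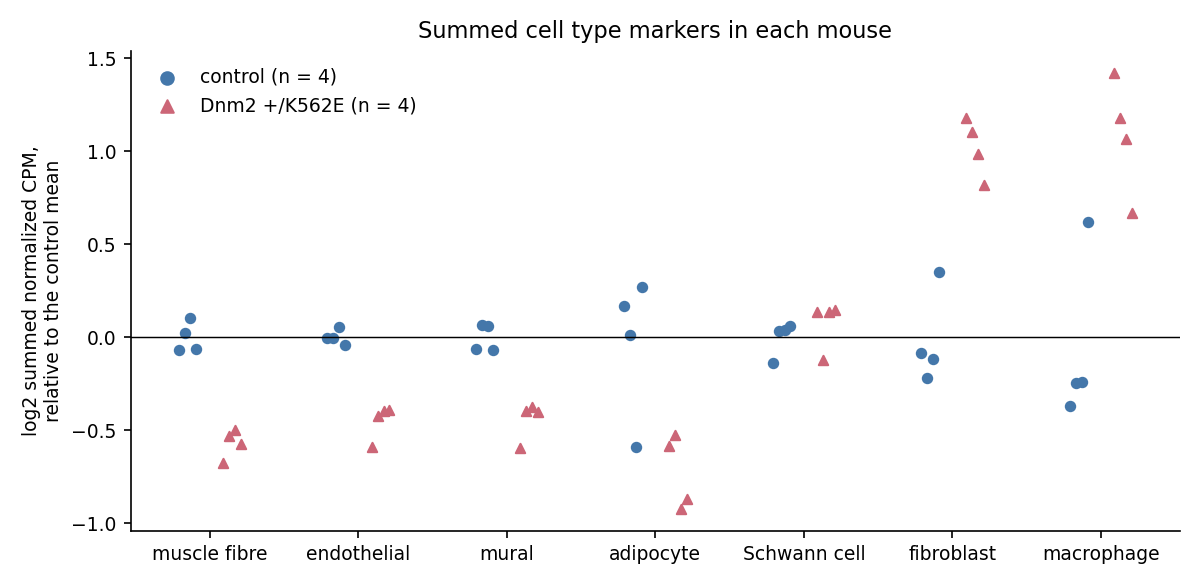
Log2 of the summed normalized CPM of each cell type list, relative to the control mean, with 1 point per mouse (circles, control; triangles, Dnm2 +/K562E). Muscle fibre, endothelial and mural sums are lower in all 4 mutant mice, fibroblast and macrophage sums are higher, and adipocyte and Schwann cell sums overlap between genotypes.

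Cav3 and Cavin4 were not lower, unlike most muscle fibre markers. Of 10 such markers 8 were lower and none higher (21.7% of all tested genes were lower), with a median of -0.57. Their sums ran from 68030 to 76767 CPM in controls and from 44730 to 50555 in mutants. The lower ones included the creatine kinase gene Ckm (-1.02) and the slow myosin light chain gene Myl3 (-2.12). Mb (-0.14, adjusted p = 0.177) and Tnni1 (-0.15, adjusted p = 0.287) did not pass, as was the case for Cavin4. With library size alone 8 of the 10 were again lower, with a median of -0.36. Among 7 genes of satellite cells and regeneration, the differentiation factor Myog (3.10) and the embryonic myosin Myh3 (3.84) were higher, whereas the satellite cell factors Pax7 (-2.03) and Myf5 (-1.85) were lower. The other 3 did not pass. The sum of the list ran from 65.8 to 79.8 CPM in controls and from 353 to 514 in mutants, where Myh3 alone had a mean of 330.3 CPM. How much of the change in Cav3 or Ehd4 moves with any of these cells was not tested.

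Among 10 partners of caveolae, 3 passed the test (22.2% of all tested genes were higher and 21.7% lower). Flot1, a flotillin of other membrane domains (log2 fold change 0.28, adjusted p = 0.00168), and the kinase gene Src (0.99, adjusted p = 6.06e-05) were higher, and Ehd3, the remaining EHD gene, was lower (-0.43, adjusted p = 0.0182). The other 7 did not pass, among them the filamin gene Flna, whose product links caveolae to actin (-0.30, adjusted p = 0.0507), the membrane-bending Pacsin2 (-0.03) and the muscle form Pacsin3 (0.02). The median of the list was 0.04. By library size alone Pacsin2 was 0.18, and 5 of the 10 passed, all higher, where 40.1% of all tested genes were higher, 10.7% were lower and the list median was 0.25. Of 12 partners of EHD proteins, 4 were higher and 3 lower. Myof, a ferlin of myoblast fusion that binds EHD2, rose by a log2 fold change of 0.71 (adjusted p = 2.32e-04), and the EHD1 adaptor Micall1 rose by 0.40 (adjusted p = 8.89e-04). Dysf, the ferlin of membrane repair, was lower (-0.33, adjusted p = 0.0143), though with library size alone it was -0.12 (adjusted p = 0.290). In that scaling 7 of the 12 passed, all of them higher, with a list median of 0.25 beside 0.22 over all genes.

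Signalling proteins that bind caveolins went both ways, with 6 of 14 higher, 7 lower and a median of -0.07. Over all tested genes 22.2% were higher and 21.7% lower. With library size alone 7 of the 14 were higher and 6 lower, beside 40.1% and 10.7% of all tested genes. The largest decreases were in the neuronal nitric oxide synthase Nos1 (-1.10, adjusted p = 6.25e-05), the insulin-responsive glucose transporter Slc2a4 (-1.03, adjusted p = 5.41e-07) and the endothelial synthase Nos3 (-0.86, adjusted p = 3.48e-04). The insulin receptor gene Insr was lower as well (-0.55, adjusted p = 2.55e-05), whereas Egfr (0.50), Fyn (0.41) and Prkcd, the kinase bound by cavin 3 (0.56, adjusted p = 0.00221), were higher. Of 9 genes that shape or stabilize T-tubules, 5 were lower and 1 higher, with a median of -0.33. The junctophilins Jph1 (-0.94) and Jph2 (-0.80) and the coupling protein gene Stac3 (-1.10) were called lower (7.85% of all tested genes). Dysf (-0.33) and Tcap (-0.41) were lower without reaching the fold threshold. Bin1, which bends T-tubule membrane, was at a log2 fold change of 0.02 (adjusted p = 0.798). Trim72, a membrane repair gene whose product binds caveolin 3, was higher (0.42, adjusted p = 0.00114). With library size alone Bin1 was 0.23 (adjusted p = 0.00743), and 3 of the 9 genes were higher and 3 lower.

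**Figure D5:**
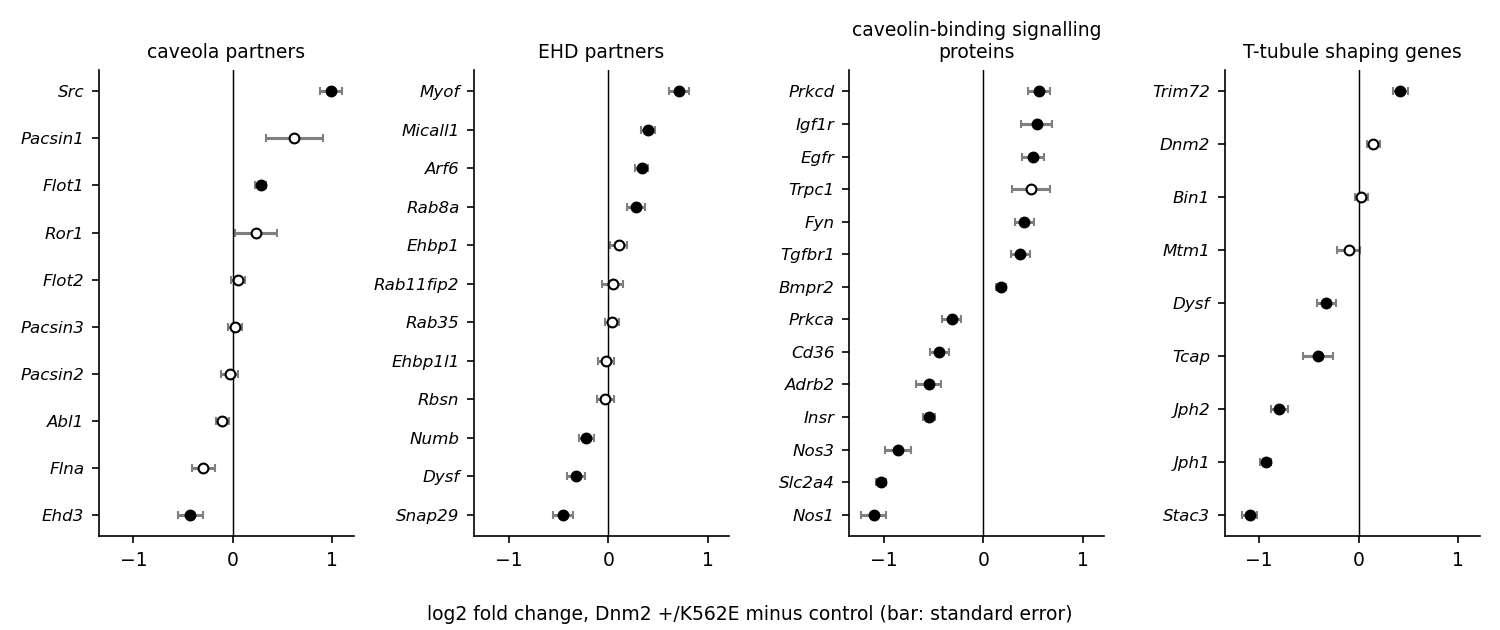
Log2 fold change (Dnm2 +/K562E minus control, bars are standard errors) of the genes in 4 lists related to caveolae, EHD proteins, caveolin-binding signalling proteins and T-tubules, with filled points for an adjusted p under 0.05. Caveola partners spread from Ehd3 at -0.43 to Src at 0.99, and signalling proteins from Nos1 at -1.10 to Prkcd at 0.56.

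To find genes with the most similar pattern, log2 CPM of each gene was centred on its own mean over the 8 mice, and the root mean square distance to each member was taken over 8463 genes with a mean of at least 10 CPM. The nearest to Cav3 were Rnf13, Cd3eap and Trim72, at 0.0431 to 0.0448 log2 units. Those nearest to Cav1 were Fhod3 (0.0344), Cnbp and Oaz1. The nearest to Cavin2 were Dis3l, Fastkd2 and Pfkm, and to Cav2 they were Fsd2, Kif1c and Adi1. For Ehd2 they were 2510002D24Rik (among the many genes that share short sequences with it), Tbc1d22b and Gm20518. For Cavin1 they were Slc12a2, Mob2 and Cdc42bpb. Ehd4 had no such close neighbour, the nearest being the acetylcholinesterase gene Ache (0.101), followed by Map1a and Lysmd2. The distance is not scaled to the size of a change, and only 3.03% of all tested genes had a larger increase than Ehd4. Among the members themselves the closest pairs were Cav1 with Cavin2 (0.0785) and Cav1 with Cav2 (0.0817).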

How the data were processed

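The authors deposited raw read counts per Ensembl gene for each of the 8 mice, without normalization. They trimmed reads with Trimmomatic 0.33, aligned them with STAR 2.5.1b to GRCm38.p5 and counted them with featureCounts, keeping multi-mapping reads at the primary alignment and counting a read for every gene it overlapped. On the libraries the sources differ, the methods giving poly A selection and the labels a stranded total RNA kit. The 10 members and all gene lists were chosen with earlier results of these data known.

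Symbols, positions and exon lengths came from GENCODE M21 (22647 of 22880 IDs matched). edgeR 4.0.16 in R 4.3.3 was used for filterByExpr (minimum count 10, minimum total 15), TMM factors and the quasi-likelihood F-test. The study's exact test was an alternative, as were DESeq2 1.42.0 and other scalings and filters. Standard errors were taken from the log2 fold change and its F statistic. Log2 CPM used a prior count of 2. The fitting was tested on simulated counts. No pair of same-genotype mice came close to sampling noise (the lowest chi-square divided by its degrees of freedom was 12.6), so all 8 were kept as replicates. Same-numbered mice are different animals. Genes named are the 10 members, Dnm2, genes of the lists described and, per member except Cavin3, Cavin4 and Ehd1, the 3 nearest profiles. Of each member's 31-base stretches, at most 0.626% occur in another gene, except for Cavin3 (21.1%).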

Additional observations from a re-analysis of the deposited data

Results flagged for a closer look

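Within each genotype of 4 mice, a value was singled out when its gap to the nearest other mouse was too large a part of the group's range by Dixon's 95% limit. Chance alone singles out about 1 in 20 groups, and 4 of the 24 groups tested had such a mouse, all of them controls. Control 1 was the lowest control for Cav1 (409 CPM, the next being 444), Cavin2 (178, next 205) and Ehd1 (55.1, next 77.0). Control 2 was the highest control for Cav2 (76.1, next 69.0). For Cav1, Cav2 and Cavin2 that mouse remained above all Dnm2 +/K562E mice.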

How the results depend on the processing

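Ehd4 was called higher in each of the settings run, and the log2 fold changes of Cav1, Cav2, Cav3, Cavin2 and Ehd4 kept their direction and an adjusted p under 0.05 in all of them. Scaling by library size alone changed several calls. It called 2 members higher, where 20.5% of all tested genes were called higher. By adjusted p alone 4 members were higher and 3 lower, beside 40.1% and 10.7% of all tested genes. Cavin1 (-0.030) and Ehd2 (-0.22) no longer passed, and Cavin3 (0.28) and Cavin4 (0.25) did. In that scaling the median of all genes was 0.22, beside 0.01 with TMM. With TMM but without the fold threshold, called members went from 1 to 2 higher and from 0 to 5 lower. Of all tested genes 22.2% were then higher and 21.7% lower. Leaving out 1 mouse at a time, called lower members ran from 0 to 1, Cavin3 from -0.021 (without control 1) to 0.11 and Ehd1 from -0.33 to -0.14. With the mouse numbers of the titles as a replicate block, the log2 fold change of Ehd4 was 1.49 and that of Cav3 0.45, and neither numbering changed a call. Deviations from the group means correlated at -0.11 on average between same-numbered mice by the titles and at -0.03 by the descriptions. The exact test and DESeq2 gave the same counts of members. With 4 mice a genotype, changes as small as those of Cavin3 and Cavin4 lie within their standard errors.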

Other observations

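Other ratios within a library, chosen after the values were seen, describe which members kept their proportions. Ehd2 to Cav1 had log2 means of -0.88 ± 0.0998 in controls and -0.81 ± 0.151 in Dnm2 +/K562E mice (SD, n = 4 each), and the groups overlapped. Cavin2 to Cavin1 went from -0.64 ± 0.0299 to -0.97 ± 0.0310, and all mutants lay below all controls. Per kilobase, Cavin2 made up 26.2% ± 0.325 of cavin reads in controls and 20.3% ± 0.581 in mutants, while Cavin4 went from 30.7% ± 1.23 to 36.0% ± 1.69. Ehd4 made up 20.4% ± 1.81 of the reads of the 3 EHD genes in controls and 47.9% ± 1.11 in mutants.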
